A study of Mus musculus with 12 samples.

Results

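The collagen genes are the gene names of the left atrial (LA) count table that consist of Col, a number, the letter a and a number. There were 44 of them among 54658 gene names, and they were grouped by the kind of structure their chains build into 11 fibrillar collagens, 8 basement membrane collagens and 25 others (collagen VI, fibril-associated, transmembrane, and short-chain network and remaining collagens). Collagen chains wind around each other as helical trimers, which are secreted and assembled outside the cell. Fibrillar collagens give tissue its tensile strength, collagen IV forms the sheet-like network on which endothelial and muscle cells rest, and collagen VI makes fine beaded filaments around cells. In the heart fibroblasts are the main source of the fibrillar chains, basement membrane chains are also made by endothelial cells, smooth muscle cells and cardiomyocytes, and surplus fibrillar collagen is known as fibrosis.

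The LA was sequenced from 6 iNICD mice and 6 control mice, 1 library per animal. The iNICD mice carry *αMHC-rtTA*, whose promoter places the doxycycline-dependent transactivator in cardiomyocytes, together with *TetO-NICD*, which encodes the intracellular domain of Notch1. Controls carry *αMHC-rtTA* alone, and the paper describes them as littermates. Both groups started at an age of 2 to 3 months and ate doxycycline chow for 3 weeks with no washout, so that the transactivator and the drug are shared and the Notch transgene is the difference between them. The control group had 4 females and 2 males and the iNICD group 3 females and 3 males. Whole LA tissue was used, in which a lower number of cells of a type and less RNA per cell cannot be told apart. The question of the comparison was how the LA transcriptome differs when Notch is activated in adult cardiomyocytes.

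Each library held between 21432632 and 27182038 counted reads, and collagen genes took 0.340% to 0.691% of them in controls and 0.420% to 0.717% in iNICD libraries. *Notch1*, which includes the transgene's reads, had 2335 to 3311 counts in controls and 71187 to 107667 in iNICD libraries. Control replicate 5 stood apart: on the first principal component of all tested genes its score was -77.4 and those of the other 5 controls ranged from -20.2 to 7.98. Where leaving it out turned the sign of a collagen gene or moved its log2 fold change by over 1.5 times, both values are given. Levels are given as normalized CPM, the read count relative to the library total (on the usual CPM scale) after that total was scaled by the trimmed mean of M values (TMM). Levels of different genes are compared only per length, as normalized CPM per kilobase of exon. The test was edgeR's quasi-likelihood test on 13541 genes with over 1 CPM in at least 6 libraries, log2 fold changes are iNICD over control, and adjusted p is the Benjamini-Hochberg value over all tested genes, with a threshold of 0.05. The p-values measure the spread between these 12 animals.

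Of the 44 collagen genes, 32 were expressed above the filter and tested. *Col27a1*, a fibrillar collagen known from cartilage, and *Col4a5*, a collagen IV chain that is mutated in X-linked Alport syndrome, were higher in the iNICD LA. The other 30 did not pass the test in either direction. The count of 2 higher among 32 stands beside 2.78% of all tested genes called higher, the count of 0 lower beside 1.34% called lower, and the 2 in all beside 4.12% called in either direction. At an unadjusted p under 0.05 there were 6 collagen genes higher and 0 lower, beside 9.32% and 8.09% of all tested genes. DESeq2 and edgeR's exact test also called 2 higher and 0 lower. With libraries blocked by replicate number, *Col27a1* alone was called higher. The log2 fold change was above 0 for 22 of the 32, beside 48.7% of all tested genes, with a median of 0.16 over the collagen genes and of -0.01 over all tested genes. Without control replicate 5 the count was again 2 higher and 0 lower, beside 3.6% and 2.3% of all genes tested then, with 26 of 32 above 0, beside 49.3% of those genes, and a median of 0.20.

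*Col27a1* spans chr4:63214004-63334991 on the plus strand of GRCm38 (GENCODE M21) with 63 exon blocks. *Col4a5* spans chrX:141475385-141689234 on the plus strand with 53 exon blocks, and *Col4a6*, which encodes a chain that assembles with that of *Col4a5*, runs the other way from a start 1309 bases away. A window near the start of each of these genes is printed because *Col27a1* and *Col4a5* are the collagen genes that passed the test and *Col4a6* shares the X chromosome locus. They are RefSeq promoters on GRCm38.p6, each from 250 bases before to 50 bases after the RefSeq start, written 5′ to 3′ along the gene's own strand. They are chr4:63215162-63215461 (plus) for *Col27a1*, chrX:141475169-141475468 (plus) for *Col4a5* and chrX:141474027-141474326 (minus) for *Col4a6*. The RefSeq start lies 1408 bases downstream of the GENCODE start for *Col27a1*, so that its window is within the gene as GENCODE draws it, 34 bases downstream for *Col4a5* and 0 bases away for *Col4a6*. Capitals mark the core TGGGAA, or TTCCCA on the other strand, of the sequence bound by RBPJ, the DNA-binding partner of NICD.

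Col27a1: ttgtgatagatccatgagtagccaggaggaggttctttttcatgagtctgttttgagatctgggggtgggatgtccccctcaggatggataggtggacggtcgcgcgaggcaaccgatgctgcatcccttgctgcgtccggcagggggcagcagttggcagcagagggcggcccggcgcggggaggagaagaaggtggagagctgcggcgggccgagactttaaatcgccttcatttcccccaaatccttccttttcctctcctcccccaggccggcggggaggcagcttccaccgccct
Col4a5: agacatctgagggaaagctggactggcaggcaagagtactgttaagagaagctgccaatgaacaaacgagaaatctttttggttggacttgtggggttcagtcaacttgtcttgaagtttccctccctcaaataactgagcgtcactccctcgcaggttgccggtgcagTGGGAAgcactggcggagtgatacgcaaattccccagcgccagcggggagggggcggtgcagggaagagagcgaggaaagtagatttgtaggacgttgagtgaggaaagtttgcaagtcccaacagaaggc
Col4a6: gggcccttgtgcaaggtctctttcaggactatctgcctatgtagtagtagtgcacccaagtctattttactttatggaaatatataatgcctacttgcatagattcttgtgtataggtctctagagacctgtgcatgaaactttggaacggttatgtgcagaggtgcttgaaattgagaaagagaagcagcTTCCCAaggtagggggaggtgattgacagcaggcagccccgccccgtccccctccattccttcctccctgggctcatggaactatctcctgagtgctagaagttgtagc

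The *Col4a5* window holds TGGGAA at positions 170 to 175, 81 bases before the RefSeq start. The *Col4a6* window holds the reverse complement at positions 192 to 197, 59 bases before the RefSeq start. The *Col27a1* window holds neither form, and the bases before its GENCODE start were not read. Over all RefSeq windows of this length, 8397 of 32851 (25.6%) hold the core on either strand, and among the 35 collagen genes with a window 12 do. Of the collagen genes with an adjusted p between 0.05 and 0.2 (edgeR), *Col4a6* and *Col20a1* have the core in their window, *Col4a4* has it in neither form, and no window was matched for *Col4a3*. The longer form GTGGGAA or TTCCCAC, which overlaps the core, is in 2097 windows (6.38%) and in those of 2 collagen genes, *Col4a5* and *Col10a1*. These matches are letters in a window and describe no binding.

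*Col27a1* had the largest log2 fold change of the 32 tested collagens. Its level in controls ran from 8.70 to 25.3 normalized CPM with a median of 17.8, and in iNICD libraries from 39.6 to 59.5 with a median of 48.9. All 6 iNICD libraries lay above all 6 controls. The mean rose from 17.1 ± 5.65 to 48.8 ± 6.75 normalized CPM (SD, n = 6 each). This is a log2 fold change of 1.51 (SE 0.20, 95% interval 1.07 to 1.94), or 2.84-fold, with an adjusted p of 0.00079 in edgeR's quasi-likelihood test. A two-sided exact permutation test of the 6 against 6 levels gave p = 0.002165, the smallest it can give. The difference ranked 97 among the 13541 tested genes by log2 fold change and 91 by p. It passed the test in all 12 fits that left out 1 library, with log2 fold changes between 1.37 and 1.65, and it was 1.49 without control replicate 5. Females and males both showed it: in females controls reached 25.3 and iNICD libraries began at 47.5 normalized CPM, and in males controls reached 16.1 and iNICD libraries began at 39.6. Its level per length was low among collagens, at 1.32 normalized CPM per kilobase in controls and 3.74 in iNICD libraries, where *Col1a1* stood at 57.0 and 65.4.

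*Col27a1* is best known from cartilage, so markers of that tissue and of other cell types were read beside it. Of 4 cartilage markers *Sox9* alone was tested, and it was not called, with a log2 fold change of -0.34 (SE 0.14, adjusted p = 0.220 in edgeR). *Acan*, the cartilage proteoglycan, had at most 12 counts in any library, *Matn1* at most 1 and *Cnmd* at most 18. Summed over the 6 libraries of a group, *Cnmd* (chondromodulin) had 19 counts in controls and 55 in iNICD libraries, 4 of which lay above all controls, whereas *Acan* had 20 and 7. No gene was called among the 7 fibroblast markers, whose summed level was 1870 to 2305 normalized CPM in controls and 1906 to 2396 in iNICD libraries. None was called among the tested markers of activated fibroblasts (5 tested of 6), smooth muscle (6 of 6), endothelium (6 of 6), macrophages (6 of 6), Schwann cells (3 of 4), adipocytes (1 of 4) and mesothelium (6 of 6). Activated fibroblast markers had log2 fold changes from -0.74 to 0.45. Their summed level was 97.6 to 272 normalized CPM in controls and 77.9 to 157 in iNICD libraries, 2 of which lay below all controls. The 4 lung epithelium markers were all under the filter, 1 of them at 0 counts in every library. The mesothelial markers had log2 fold changes from -0.31 to -0.14, and their summed level was 244 to 331 normalized CPM in controls and 155 to 310.1 in iNICD libraries, 4 of which lay below all controls. Of 6 cardiomyocyte markers 2 were lower, *Tnnt2* (troponin T, log2 fold change -0.44) and *Myl7* (the atrial light chain, -0.54), beside 1.34% of all tested genes called lower. The other 4 were not called, with log2 fold changes of -0.03 for *Myh6*, -0.12 for *Actn2*, 0.07 for *Ryr2* and -0.12 for *Ttn*. The summed cardiomyocyte level, which includes *Tnnt2* and *Myl7*, was 54246 to 58568 normalized CPM in controls and 48183 to 55774 in iNICD libraries, 5 of which lay below all controls. The part of these markers in the collagen differences was not tested.

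**Figure D1:**
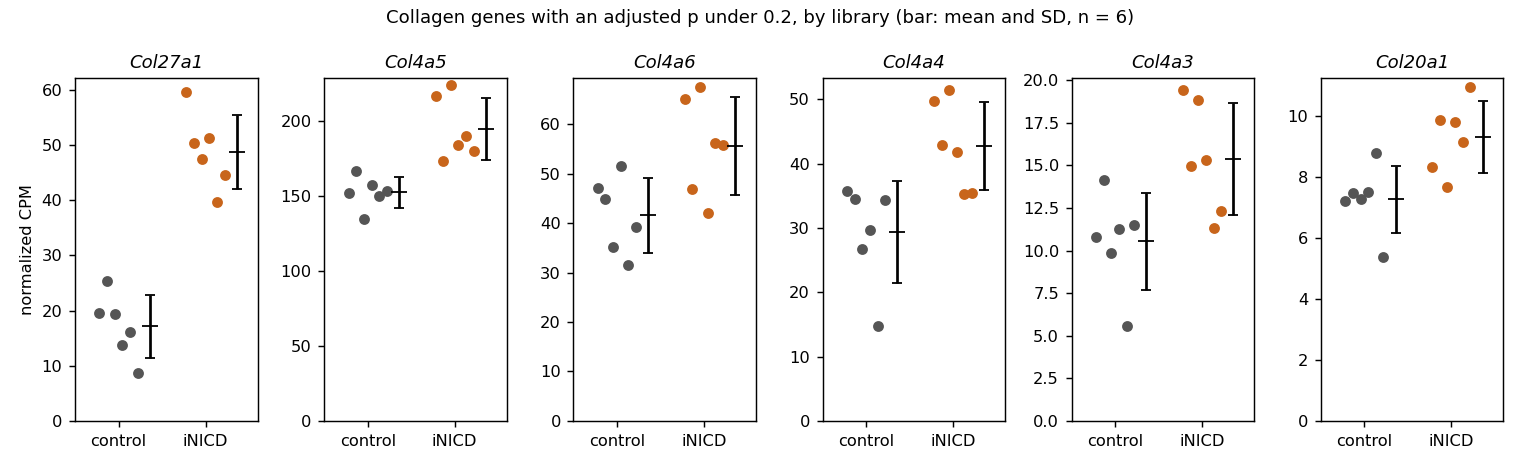
The 6 collagen genes with an adjusted p under 0.2, each point 1 LA library, on a linear axis of normalized CPM that starts at 0, with the mean and SD of 6 libraries per group as a bar. The iNICD points of *Col27a1* (39.6 to 59.5) and *Col4a5* (173 to 224) lie above every control, and in the other 4 genes 4 of 6 iNICD points do.

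*Col4a5* was higher by a smaller amount and with little spread. Controls had 135 to 167 normalized CPM with a median of 153, and iNICD libraries had 173 to 224 with a median of 187. The groups did not overlap, the nearest libraries being iNICD replicate 2 and control replicate 2. Among all tested genes 2.58% had iNICD levels that were all above the controls. The log2 fold change was 0.35 (SE 0.08, 95% interval 0.19 to 0.52), or 1.28-fold, with an adjusted p of 0.0201 in edgeR's quasi-likelihood test and an exact permutation p of 0.002165 (two-sided, n = 6 per group). Its call was lost in 1 of the 12 fits that left out a library: without iNICD replicate 1 the adjusted p of edgeR's test was 0.0513. The call was also lost when libraries were blocked by replicate number, under either numbering. The coefficient of variation of its level over controls was 6.91%, against 33.0% for *Col27a1*. Males had 150.1 to 153 normalized CPM in controls and 180.4 to 190 in iNICD libraries, and females 135 to 167 and 173 to 224, so that neither sex showed an overlap.

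*Col4a6*, *Col4a4* and *Col4a3* had positive log2 fold changes that did not pass the test. The collagen IV genes lie in the genome as 3 pairs that start close together and run in opposite directions. *Col4a1* and *Col4a2*, whose chains form the network found in nearly all basement membranes, start 21 bases apart on chromosome 8. *Col4a3* and *Col4a4*, whose chains assemble with that of *Col4a5* and are best known from the kidney filter, start 72 bases apart on chromosome 1. *Col4a6* had 31.5 to 51.6 normalized CPM in controls (median 42.0) and 42.0 to 67.5 in iNICD libraries (median 56.0). *Col4a4* had 14.7 to 35.8 in controls (median 32.05) and 35.3 to 51.4 in iNICD libraries (median 42.3). *Col4a3* had 5.57 to 14.2 in controls (median 11.03) and 11.3 to 19.4 in iNICD libraries (median 15.1). In each of these 3 genes 4 of 6 iNICD libraries lay above all controls and the others overlapped with them. Their log2 fold changes were 0.42 (SE 0.14) for *Col4a6*, 0.54 (SE 0.19) for *Col4a4* and 0.54 (SE 0.20) for *Col4a3*, with adjusted p of 0.134, 0.139 and 0.166 in edgeR's quasi-likelihood test. Control replicate 5 had the lowest control level of all 3, and without it the log2 fold changes were 0.35, 0.41 and 0.41. *Col4a3* shares 563 exon bases, 5.65% of its exons, with *C430014B12Rik* on the opposite strand, and whether counting used strand is not stated.

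*Col4a1* and *Col4a2* had the widest spread of the basement membrane genes over controls, and control replicate 5 held the highest value of both. *Col4a1* ran from 396 to 1029 normalized CPM in the other 5 controls and stood at 2265 in that library, while iNICD libraries had 437 to 808. *Col4a2* ran from 307 to 747 in the other 5 controls and stood at 1504 in that library, while iNICD libraries had 310 to 592. The iNICD values of both genes fell within the range of the controls. With all libraries the log2 fold changes were -0.36 (SE 0.40, adjusted p = 0.688 in edgeR) for *Col4a1* and -0.41 (SE 0.38, adjusted p = 0.619) for *Col4a2*. Without control replicate 5 the sign turned, to 0.22 and 0.11, and neither passed the test. The ratio of *Col4a1* to *Col4a2* per length was 1.15 to 1.34 in controls and 1.20 to 1.49 in iNICD libraries, which overlap. Control replicate 5 had the highest control ratio, 1.34, where the other 5 controls had 1.15 to 1.33. The ratio of *Col4a5* to *Col4a1* per length had a median of 0.336 in controls and 0.325 in iNICD libraries, and stood at 0.0736 in control replicate 5. *Col4a1* and *Col4a2* share 22 exon bases on opposite strands.

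*Col15a1* and *Col18a1*, whose chains sit at the outer face of basement membranes and end in domains released as endostatin-like fragments, completed the group. *Col15a1* had 274 to 650.2 normalized CPM in controls (median 524) and 320.1 to 713 in iNICD libraries (median 622), and *Col18a1* had 39.9 to 70.5 (median 54.3) and 54.2 to 63.1 (median 57.4). The groups overlapped in both genes, with 2 iNICD libraries above all controls for *Col15a1* and 0 for *Col18a1*, and the log2 fold changes were 0.23 (SE 0.23) and 0.07 (SE 0.11). The *Col18a1* value was 0.11 without control replicate 5. Of the 8 basement membrane collagens, all tested, 1 was higher and 7 did not pass, with a median log2 fold change of 0.29. Without control replicate 5 all 8 were above 0, from 0.11 to 0.41, with a median of 0.30 and again 1 called. In that fit 49.3% of all tested genes were above 0 and 3.6% were called higher.

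**Figure D2:**
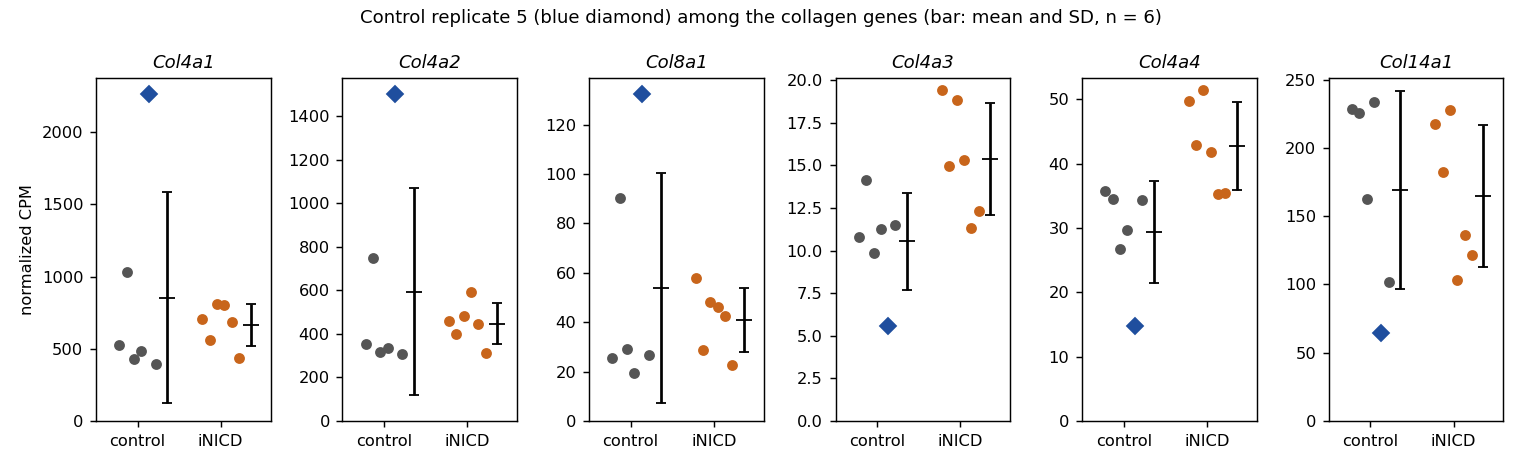
Levels of 6 collagen genes by LA library on a linear axis of normalized CPM that starts at 0, with control replicate 5 as a blue diamond and the mean and SD of 6 libraries per group as a bar. The diamond is the highest point for *Col4a1* (2265), *Col4a2* (1504) and *Col8a1* (133) and the lowest for *Col4a3* (5.57), *Col4a4* (14.7) and *Col14a1* (64.0).

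The main fibrillar collagens, which make up the bulk of heart collagen, did not differ between the groups beyond their spread. *Col3a1*, the chain of collagen III, had 654 to 1258 normalized CPM in controls (median 1039) and 773 to 1756 in iNICD libraries (median 999). *Col1a1* had 215 to 492 in controls (median 380) and 233 to 551 in iNICD libraries (median 446). *Col1a2*, the partner chain in collagen I, had 340.2 to 509 in controls (median 447) and 349 to 669 in iNICD libraries (median 491). The groups overlapped in all 3 genes. Their log2 fold changes were 0.16 for *Col3a1* (SE 0.22, 95% interval -0.31 to 0.64), 0.20 for *Col1a1* (SE 0.23, -0.29 to 0.69) and 0.18 for *Col1a2* (SE 0.14, -0.13 to 0.49). Each interval takes in 0, and rises of up to 1.55-fold for *Col3a1* and 1.61-fold for *Col1a1* lie within the error of these libraries. The adjusted p in edgeR were 0.741, 0.694 and 0.562.

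Collagen V, which sits in the core of collagen I fibrils and sets their width, also overlapped between the groups. *Col5a1* had 89.1 to 206 normalized CPM in controls (median 134) and 93.7 to 211 in iNICD libraries (median 176), *Col5a2* had 60.8 to 167 (median 79.9) and 77.3 to 131 (median 107), and *Col5a3* had 18.9 to 67.7 (median 51.7) and 31.7 to 92.3 (median 68.9). The log2 fold changes were 0.24 (SE 0.22), 0.11 (SE 0.23) and 0.50 (SE 0.35), with adjusted p of 0.614, 0.843 and 0.498 in edgeR. *Col11a2*, a chain of the cartilage fibril collagen XI, had a log2 fold change of -0.03 (SE 0.18). Without control replicate 5 the log2 fold changes of *Col5a1*, *Col5a2* and *Col11a2* were 0.36, 0.33 and -0.12, and none passed the test. Of the 11 fibrillar genes 8 were tested, of which 1 (*Col27a1*) was higher and 7 did not pass, and the median log2 fold change was 0.19, or 0.28 without control replicate 5. *Col5a1* shares 113 and 99 exon bases with 2 genes on the opposite strand, and *Col3a1* shares 141 with a miRNA gene on its own strand.

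Ratios between chains of a trimer or fibril were taken within each library. *Col1a1* stood to *Col1a2* per length at a median of 1.57 in controls (1.19 to 1.83) and 1.605 in iNICD libraries (1.26 to 1.94). *Col3a1* stood to *Col1a1* at 1.81 (1.48 to 2.04) and 1.74 (1.33 to 2.22), *Col5a1* to *Col5a2* at 1.74 and 1.86, *Col6a1* to *Col6a2* at 1.72 and 1.76, and *Col4a3* to *Col4a4* at 0.398 and 0.381. The groups overlapped in every ratio computed.

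**Figure D3:**
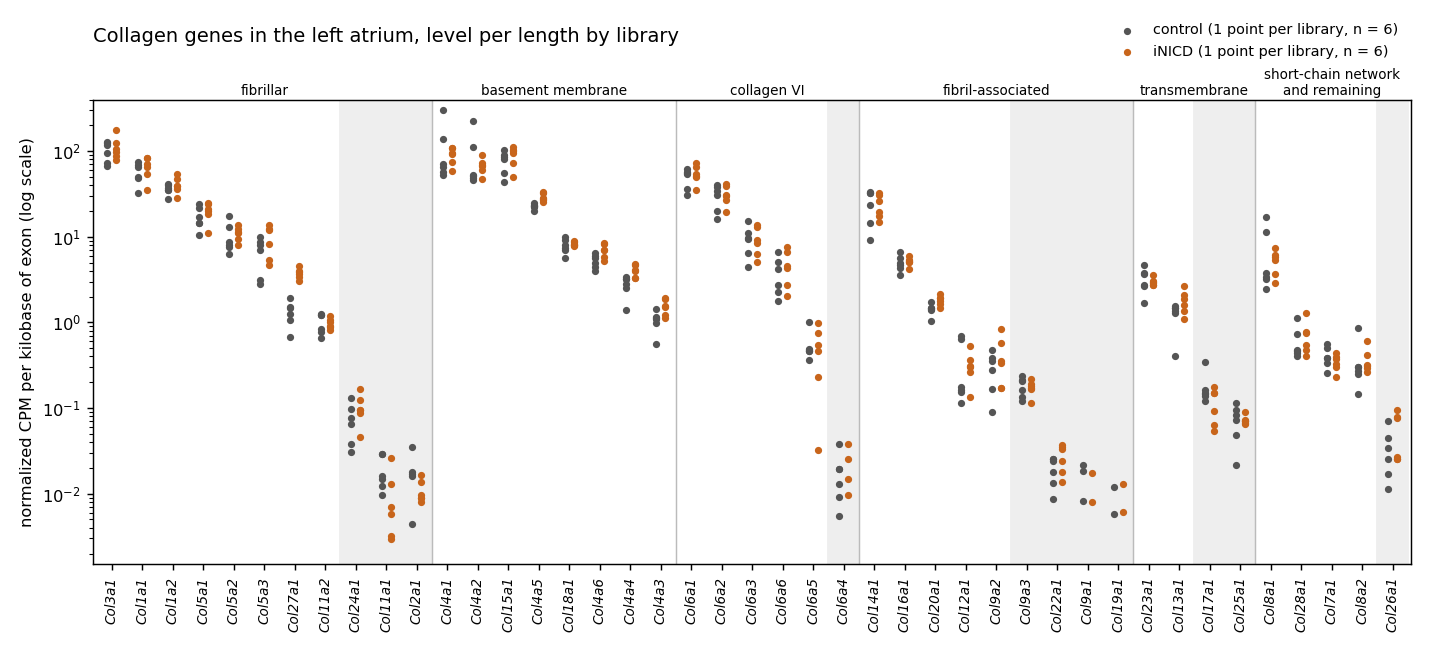
Level per length of the 43 collagen genes with at least 1 read, on a log axis of normalized CPM per kilobase, grouped by structure, with 1 point per library (n = 6 per group, libraries at 0 counts not drawn) and the genes under the filter shaded grey. Among the unshaded genes only *Col27a1* and *Col4a5* show iNICD points wholly above the controls; levels run from over 100 for *Col4a1* and *Col3a1* to under 1 for *Col9a2* and *Col8a2*.

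Per length, the collagens with the highest mean control levels were *Col4a1* (114 normalized CPM per kilobase), *Col3a1* (100.3), *Col4a2* (89.7), *Col15a1* (76.0), *Col1a1* (57.0) and *Col6a1* (49.3). These neighbours overlapped over control libraries. The means of *Col4a1* and *Col4a2* include the high values of control replicate 5 (303 and 227), on which their places in this order rest. Of the summed collagen level per length, fibrillar genes made up 25.5% to 41.1% in controls (median 34.8%) and 33.6% to 41.4% in iNICD libraries (median 37.2%). Basement membrane genes made up 35.8% to 60.9% in controls (median 41.9%) and 37.9% to 46.7% in iNICD libraries (median 42.6%), and collagen VI 10.05% to 16.0% (median 14.2%) and 12.1% to 15.7% (median 14.4%). The summed level itself was 429 to 1065 in controls and 513 to 899.5 in iNICD libraries. Every share overlapped between the groups, and the highest basement membrane share and the highest summed level of all 12 libraries were those of control replicate 5.

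None of the 16 tested genes among the other collagens passed the test, and their median log2 fold change was 0.05 with 9 of 16 above 0. These became 0.11 and 11 of 16 without control replicate 5. Collagen VI had 5 tested genes. *Col6a1* had 136 to 274 normalized CPM in controls (median 238) and 154 to 319 in iNICD libraries (median 232), and *Col6a2* had 136 to 332 (median 268) and 162 to 346 (median 253). *Col6a3*, the long chain that joins them in the classical trimer, had 52.6 to 182 (median 115) and 61.5 to 166 (median 106). The log2 fold changes of *Col6a1*, *Col6a2* and *Col6a3* were 0.15 (SE 0.20), 0.07 (SE 0.23) and -0.0018 (SE 0.30). The alternative chains *Col6a6* and *Col6a5* spread more widely, with log2 fold changes of 0.31 (SE 0.37) and -0.12 (SE 0.52). The log2 fold change was 0.15 for *Col6a2*, 0.046 for *Col6a3* and 0.16 for *Col6a6* without control replicate 5. The lowest *Col6a5* level, 0.309 normalized CPM, was in iNICD replicate 2, while the other 11 libraries had at least 2.15. The highest was 9.49 in control replicate 6, where the other 5 controls had 3.44 to 4.63, and the log2 fold change was 0.14 without that library.

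The fibril-associated collagens bind to the surface of fibrils. *Col14a1*, the most highly expressed of them, had 64.0 to 233 normalized CPM in controls (median 194) and 103 to 227 in iNICD libraries (median 159), with a log2 fold change of -0.04 (SE 0.31). Its level was lower in males, and the groups differ in their numbers of each sex. Females had 163 to 233 in controls and 182 to 227 in iNICD libraries. Males had 64.0 to 102 in 2 controls and 103 to 136 in 3 iNICD libraries. With sex as a covariate the sign of the *Col14a1* log2 fold change turned, as given below. *Col20a1* came nearest to the threshold in this class: controls had 5.37 to 8.80 normalized CPM (median 7.39) and iNICD libraries 7.66 to 10.95 (median 9.48). There 4 of 6 iNICD libraries lay above all controls, the log2 fold change was 0.35 (SE 0.12) and the adjusted p was 0.150 in edgeR. Without control replicate 5, the highest control for *Col20a1*, the groups did not overlap, but the adjusted p of 0.0658 in edgeR still missed the threshold. *Col16a1* had a log2 fold change of 0.05 (SE 0.13), *Col12a1*, which is known from tissue under mechanical load, -0.03 (SE 0.48) with the iNICD mean above the control mean in females and below it in males, and *Col9a2* 0.46 (SE 0.44). The log2 fold changes of *Col14a1*, *Col16a1* and *Col12a1* were -0.21, 0.083 and 0.28 without control replicate 5.

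Of the transmembrane collagens, *Col13a1*, which is known from the neuromuscular junction, had 1.87 to 7.23 normalized CPM in controls (median 6.48) and 5.01 to 12.3 in iNICD libraries (median 7.98). Here 4 of 6 iNICD libraries exceeded all controls, with a log2 fold change of 0.49 (SE 0.29) and an adjusted p of 0.411 in edgeR. The lowest control was control replicate 5, at 1.87 where the other controls had 5.97 to 7.23, and without it the log2 fold change was 0.31 (SE 0.19). *Col23a1* had a log2 fold change of -0.09 (SE 0.19), and -0.22 without that library. *Col8a1*, a short-chain collagen of vessel walls, had 19.5 to 90.1 normalized CPM in the other 5 controls, 133 in control replicate 5 and 22.8 to 58.0 in iNICD libraries. Its log2 fold change was -0.39 (SE 0.46), and 0.10 without that library. *Col7a1*, the anchoring fibril collagen of skin, *Col8a2* and *Col28a1* had log2 fold changes of -0.23 (SE 0.21), 0.04 (SE 0.37) and 0.21 (SE 0.33). The highest *Col8a2* level, 3.84 normalized CPM, was in control replicate 2, where the other controls had 0.655 to 1.37. Leaving out control replicate 5 gave log2 fold changes of -0.12 for *Col8a2* and 0.13 for *Col28a1*. Without control replicate 2 the *Col8a2* value was 0.52.

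**Figure D4:**
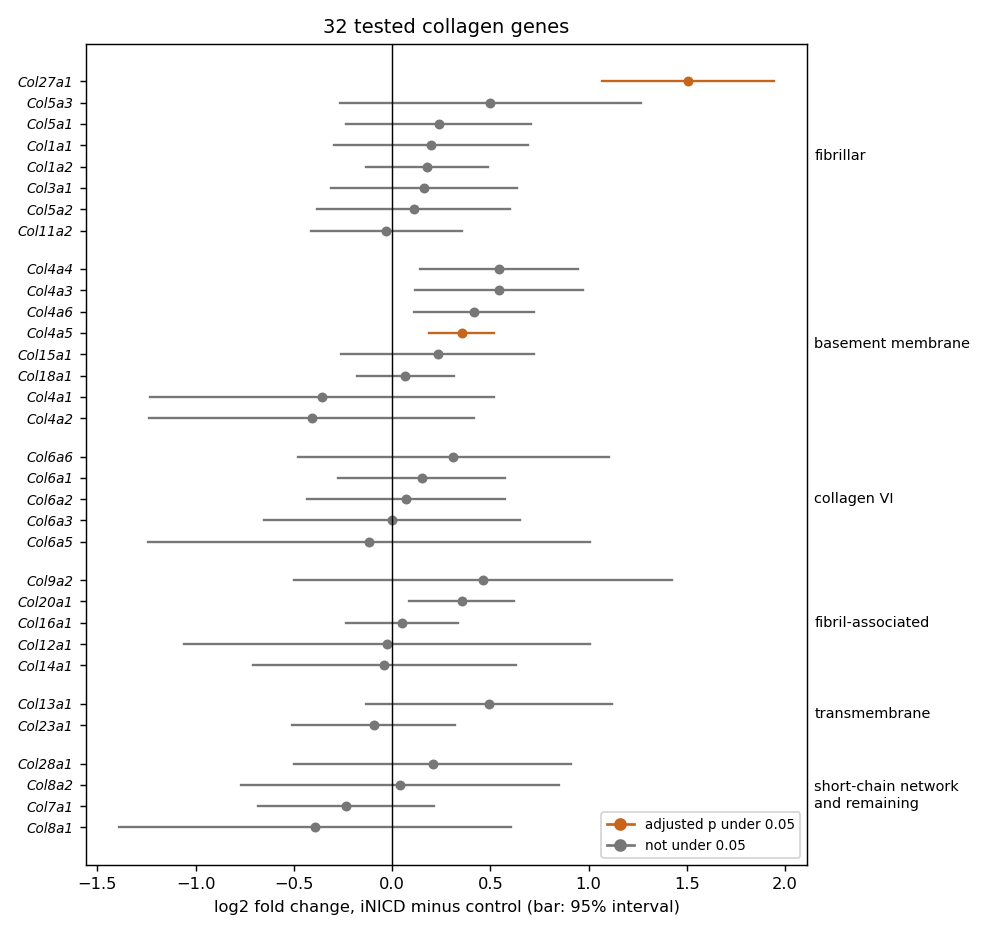
Log2 fold change (iNICD over control, linear axis) of the 32 tested collagen genes with its 95% interval from edgeR, grouped by structure, orange where the adjusted p was under 0.05. *Col27a1* at 1.51 and *Col4a5* at 0.35 are orange, and the bars of *Col4a1*, *Col4a2* and *Col8a1* are among the longest.

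The other 12 collagen genes stayed under the filter and were not compared. *Col10a1*, the collagen of hypertrophic cartilage, had 0 counts in every library. The highest count in any library was 2 for *Col19a1*, 3 for *Col9a1*, 7 for *Col2a1* (the main cartilage collagen), 8 for *Col6a4*, 9 for *Col22a1* (a collagen of tissue junctions), 10 for *Col11a1* and 19 for *Col26a1*. It was 22 for *Col9a3*, 31 for *Col24a1*, 32 for *Col25a1* (a neuronal collagen) and 43 for *Col17a1* (a collagen of skin hemidesmosomes). Of the 11 with reads, a fit with no filter on low counts called 0, and the lowest adjusted p was 0.514 (edgeR).

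Beyond the chains themselves, 60 genes that modify, cleave, cross-link, bind, sense or break down collagen were read, of which 55 were tested, 3 were higher and 1 was lower, with a median log2 fold change of -0.01. These counts stand beside 2.78% of all tested genes called higher and 1.34% called lower. *P4ha3*, *Tll2*, *Mmp8*, *Mmp13* and *Gp6* were under the filter. Among the 17 tested genes of chain modification and folding, *Plod1* fell and *Plod2* rose; both encode lysyl hydroxylases, which prepare collagen for cross-linking. *Plod1* had 135 to 203 normalized CPM in controls (median 150) and 97.1 to 119 in iNICD libraries (median 104), with no overlap between the groups, as in 1.25% of all tested genes with every iNICD library below the controls. Its log2 fold change was -0.58 (SE 0.10) with an adjusted p of 0.00499 in edgeR, and it passed in all 12 fits with a library left out. *Plod2* had 55.6 to 61.5 normalized CPM in controls (median 57.2) and 62.9 to 72.2 in iNICD libraries (median 67.9), again with no overlap, and its log2 fold change was 0.24 (SE 0.05, adjusted p = 0.0179 in edgeR). It passed in 11 of 12 such fits and had an adjusted p of 0.0643 without iNICD replicate 4. Of these 17 genes 11 had a log2 fold change below 0, beside 51.3% of all tested genes, and the list's median was -0.19. *Serpinh1*, the collagen chaperone and the list's most highly expressed gene per length, had -0.35 (SE 0.19), or -0.15 without control replicate 5. *P4ha1*, a prolyl hydroxylase subunit, had -0.47 (SE 0.15, adjusted p = 0.103 in edgeR), or -0.34 without that library. The list's count below 0 and its median include that library.

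*Tnxb*, tenascin X of the fibril surface, rose among 8 fibril partners, from 213 to 312 normalized CPM in controls (median 257) to 309 to 411 in iNICD libraries (median 365). Of the iNICD libraries 5 lay above all controls, and the log2 fold change was 0.46 (SE 0.10, adjusted p = 0.0267 in edgeR). *Ddr1*, a receptor kinase that is activated by collagen, rose among 8 tested receptors, from 125 to 163 normalized CPM in controls (median 138) to 160.5 to 197 in iNICD libraries (median 172). Of the iNICD libraries 4 lay above all controls, and the log2 fold change was 0.33 (SE 0.08, adjusted p = 0.0331 in edgeR). Both calls were near the threshold and passed in 4 of 12 fits with a library left out, with adjusted p of up to 0.0729 for *Tnxb* and 0.0862 for *Ddr1*, each without iNICD replicate 4. With no filter on low counts *Plod2* and *Ddr1* were not called and *Tnxb* was.

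None of the 12 tested genes of cleavage and cross-linking and none of the 10 tested genes of degradation and its inhibitors passed. *Mmp3*, stromelysin, had 0.139 to 2.15 normalized CPM in controls and 39.4, 52.5 and 10.7 in iNICD replicates 1, 2 and 5, while the other 3 iNICD libraries had 0.341 to 0.803. Its log2 fold change was 3.88 (SE 1.20, adjusted p = 0.0999 in edgeR). *Timp1*, an inhibitor of such proteases, stood at 132 normalized CPM in control replicate 5, at 3.06 to 20.9 in the other 5 controls and at 3.49 to 8.69 in iNICD libraries, and its log2 fold change of -2.27 (SE 0.87) became -0.43 without that library. The most highly expressed genes per length of the remaining lists, *Dcn* (decorin; 210.3 normalized CPM per kilobase in controls), *Itgb1* (integrin beta; 167), *Timp2* (106) and *Pcolce* (an enhancer of procollagen cleavage; 35.6), had log2 fold changes of 0.08 (SE 0.11), -0.14 (SE 0.12), 0.03 (SE 0.09) and -0.35 (SE 0.16) and did not pass. Those of *Dcn*, *Itgb1* and *Timp2* were 0.031, -0.027 and -0.029 without control replicate 5.

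**Figure D5:**
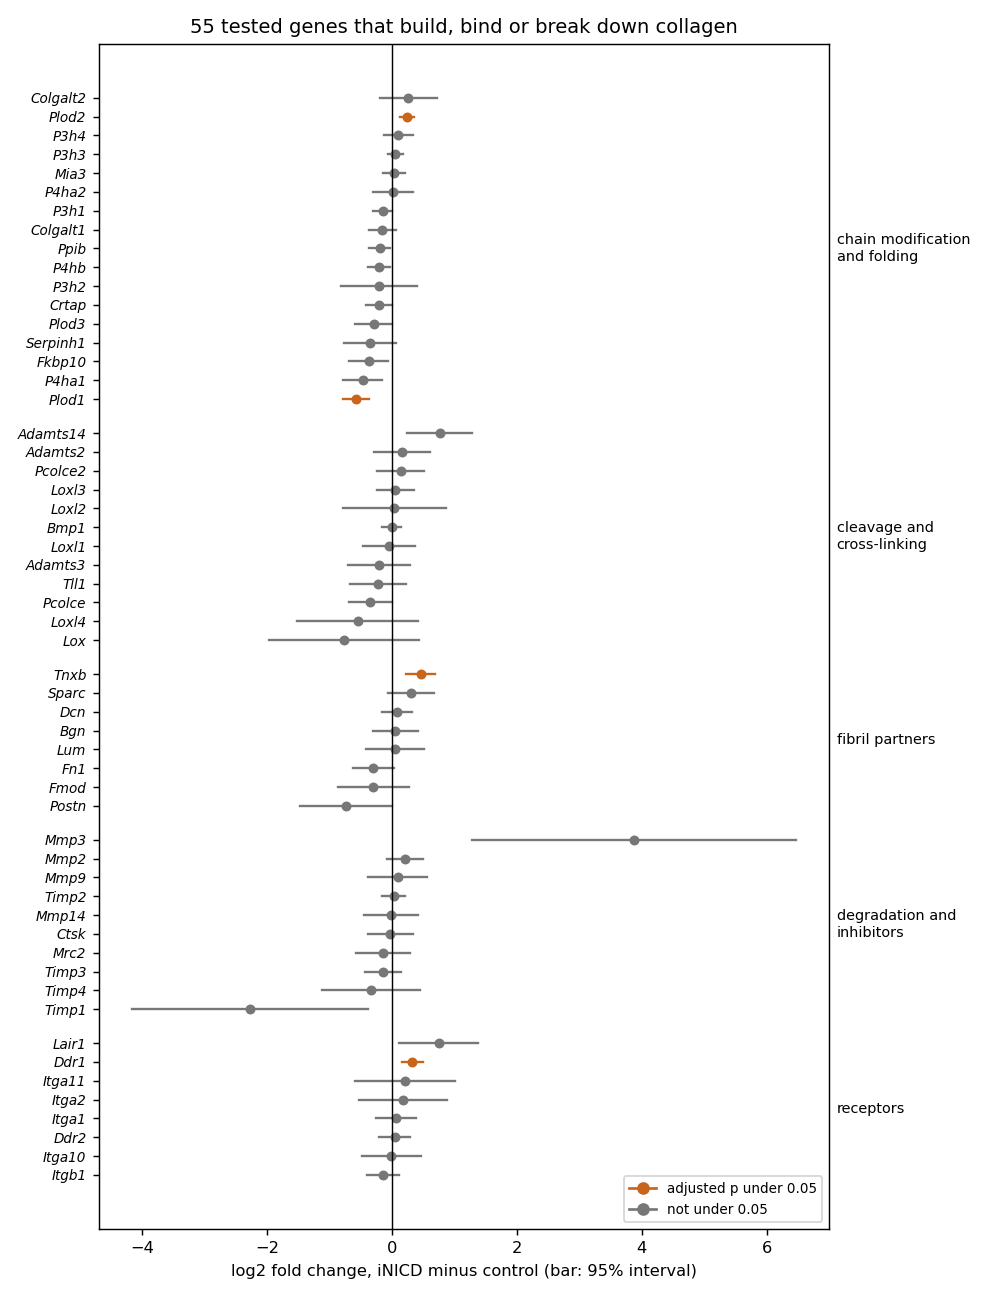
Log2 fold change (iNICD over control, linear axis) of the 55 tested genes that build, bind or break down collagen with its 95% interval from edgeR, grouped by role, orange where the adjusted p was under 0.05. *Plod1* at -0.58 is the orange point below 0, *Plod2* (0.24), *Ddr1* (0.33) and *Tnxb* (0.46) are the orange points above 0, and the widest bars are those of *Mmp3* and *Timp1*.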

How the data were processed

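RNA was extracted from the LA of 12 mice, ribosomal RNA was removed and libraries were prepared with a TruSeq kit. The authors deposited raw read counts per gene name with no normalization, and a length in bases per gene as another kind of value, which equalled the exon union of GENCODE M21 for 42 of the 44 collagen genes and was used for levels per length. Per the labels, the submitters' processing notes name cutadapt, STAR 2.4.2a, Subread, featureCounts, edgeR and mm10. The study's methods describe stranded reads and 2 counting routes, by HTSeq and by featureCounts. The table does not name the route that made it, and whether counting used strand is not stated. Groups, sexes and replicate numbers came from titles, genotypes and descriptions.

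After TMM scaling, the groups were fitted in R 4.3.3 by edgeR 4.0.16 (quasi-likelihood, two-sided, Benjamini-Hochberg adjustment) over 13541 genes with over 1 CPM in at least 6 libraries. The procedure was tested on simulated data. No libraries were copies of each other. Alternatives were DESeq2 1.42.0, edgeR's exact test, DESeq2 size factors, looser filters, a sex term, replicate blocks by title or description number, and each library left out. Genes named are those that passed, had an adjusted p under 0.2 or did not overlap between groups, the 4 highest per length in each class, those under the filter (the other tested members are given to account for all 44), and per other list the genes that passed and the highest; *Mmp3*, *Timp1* and *P4ha1* were named after their values were seen. Members and lists were chosen with earlier results of these data known. Positions are from GENCODE M21 and promoters from RefSeq (GRCm38.p6). The right atrium was not analysed here.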

Additional observations from a re-analysis of the deposited data

Results flagged for a closer look

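In each of the 64 groups of 6 libraries formed by a tested collagen gene and a condition, the highest or lowest library was compared with the rest, and in 5 it stood far from the others by Dixon's criterion at the 95% level. Chance flags about 1 in 20 groups, or 3.2 here. Control replicate 5 accounted for 3 of the 5: its level was 2265 normalized CPM for *Col4a1* (396 to 1029 in the other 5 controls), 1504 for *Col4a2* (307 to 747) and 1.87 for *Col13a1* (5.97 to 7.23). Control replicate 2 stood at 3.84 normalized CPM for *Col8a2*, where the other controls had 0.655 to 1.37, and control replicate 6 at 9.49 for *Col6a5*, where the other controls had 3.44 to 4.63.

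The iNICD mean of *Col12a1* lay above the control mean in females and below it in males: the ratio of the iNICD to the control mean was 1.36 in females (4 controls, 3 iNICD) and 0.613 in males (2 controls, 3 iNICD). The difference between the sexes was not tested, and the male direction rests on control replicate 5, with 9.74 normalized CPM. The other male control had 1.76 normalized CPM, below all 3 male iNICD libraries (2.05 to 4.54), so that without control replicate 5 the male libraries lay on the same side as the female mean. For *Col11a2* the ratio was 0.874 in females, whose 3 iNICD libraries had 6.17 to 7.27 normalized CPM within the range of the 4 controls (5.65 to 8.61), and 1.35 in males, whose 3 iNICD libraries (5.57 to 8.02) lay above both controls (4.49 and 5.23). This difference between the sexes was not tested either.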

How the results depend on the processing

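Of 2 collagen genes higher and 0 lower, both counts held with DESeq2, edgeR's exact test, DESeq2 size factors, no filter, a filter of over 1 CPM in at least 2 libraries and sex as a covariate. Leaving out 1 library gave 1 to 2 higher and 0 lower.

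The labels do not say whether same-numbered libraries are pairs, and the correlations of their deviations did not settle it. For the title numbers these ran from -0.153 to 0.372 with a mean of 0.121. There 4 of 6 pairs were over 0.1, and 3 of 6 controls were closest to their own number. The numbers in the descriptions, which exchange 2 controls, gave a mean of 0.138. There 4 of 6 pairs were over 0.1, and 2 of 6 controls were closest to their own number. With the replicate block 1 collagen gene was higher under either numbering, *Col27a1*, and the adjusted p of *Col4a5* was 0.0876 and 0.0918 with its log2 fold change at 0.35.

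Of the other genes of the collagen pathway, 3 higher and 1 lower became 5 and 2 with DESeq2, 4 and 2 with the exact test, 1 and 1 with no filter, 1 and 2 with the replicate block by title numbers and 1 and 1 with the block by description numbers. The gene still called higher with no filter and under both blocks was *Tnxb*, so that *Plod2* and *Ddr1* lost their calls there. Leaving out 1 library gave 0 to 4 higher and 1 to 2 lower.

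Collagen genes whose sign turned were never past the threshold. *Col14a1* moved to 0.20, *Col6a3* to 0.064 and *Col11a2* to 0.055 with sex as a covariate. With the replicate block by title numbers *Col12a1* was 0.23, *Col14a1* 0.047, *Col6a3* 0.028 and *Col11a2* 0.0020, and by description numbers 0.23, 0.044, 0.028 and 0.0053. The sign also turned when 1 library was left out, over ranges of -0.21 to 0.073 for *Col14a1*, -0.15 to 0.18 for *Col6a3*, -0.15 to 0.52 for *Col8a2*, -0.24 to 0.33 for *Col12a1*, -0.055 to 0.18 for *Col6a2*, -0.52 to 0.22 for *Col4a1*, -0.56 to 0.11 for *Col4a2*, -0.57 to 0.10 for *Col8a1*, -0.035 to 0.15 for *Col16a1*, -0.22 to 0.038 for *Col23a1*, -0.050 to 0.48 for *Col28a1*, -0.018 to 0.25 for *Col3a1*, -0.12 to 0.050 for *Col11a2*, -0.011 to 0.14 for *Col18a1*, -0.0056 to 0.33 for *Col5a2* and -0.43 to 0.14 for *Col6a5*. The cause was not tested. The tested collagens with the fewest reads, *Col9a2* and *Col8a2*, had 6 to 63 and 14 to 104 counts per library.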
